A study of Mus musculus with 8 samples.

Results

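Nitric oxide, arginine and itaconate metabolism was followed through 7 genes of hepatic macrophages: *Nos2*, *Ass1*, *Gch1*, *Slc7a2*, *Slc7a1*, *Odc1* and *Acod1*. They were chosen by symbol from a table of 55401 genes, and all 7 passed the filter on low counts. RNA was sequenced as directional poly(A) libraries in 4 groups of 2. Macrophages came either from normal livers of WT mice on a standard diet or from steatotic livers of MC4R-KO mice given a Western diet for 6 to 10 wk, both on the C57BL/6J background. F4/80 antibodies and magnetic columns were used to isolate the cells, which were kept on collagen in RPMI with serum and received vehicle (Veh) or cholesterol crystals (CC) at 500 μg/ml for 24 h. Genotype and diet changed together and cannot be told apart. The F4/80-selected cells were a cultured mixture, and the labels do not say whether animals were pooled or whether the libraries of a group came from separate animals, so p-values measure the spread between libraries, which may be technical.

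Nitric oxide synthases cut arginine into citrulline and nitric oxide with tetrahydrobiopterin as cofactor, and the inducible enzyme, encoded by *Nos2*, is a classical product of activated mouse macrophages. Arginine is also a source of ornithine, which feeds polyamine and proline synthesis. Itaconate, made from the Krebs cycle intermediate cis-aconitate by the *Acod1* product, inhibits succinate dehydrogenase and can activate the NRF2 antioxidant program.

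Total counts were 58668655 to 74529462 per library, and replicates correlated across genes at r = 0.993 to 0.994 on log2(CPM + 1), where CPM is the gene count scaled to the library total. *Mc4r*, the gene knocked out in 1 of the 2 lines, showed no count in any library labelled normal but 22 to 72 in those labelled steatotic, a pattern opposite to the labels if the knockout allele gives no reads. Each direction between livers below is given by the labels. All 7 macrophage markers were present, with a summed level of 7119 to 12133 CPM, and all 5 Kupffer cell markers were tested. At Veh, *Vsig4*, *Timd4* and *Cd5l* were higher with the label steatotic and *Clec4f* and *Marco* lower. Of 7 neutrophil markers 1, *S100a8*, was tested and is described below, and *Ly6g* had 0 counts throughout. The median log2 fold change of all 15202 tested genes was within 0.01 of 0 in each comparison.

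RefSeq promoter windows for GRCm38.p6, from 250 bases before to 50 after a transcription start, were matched by symbol for 5 of the 7 genes. *Nos2* and *Slc7a2* were not matched. The 3 windows below are shown as examples from genes that rose with CC, *Acod1* and *Gch1* with either label and *Ass1* with the label steatotic. *Slc7a1* also rose with either label, and its windows are described in words. Capitals mark matches, on either strand, to 7 motifs: TATAAA for the core promoter box, CCAAT for the box of that name, CACGTG for the E-box, TTCNNNGAA for STAT factors, TGANTCA for AP-1, TGACNNNGC for the antioxidant response element, and the NF-kB consensus. Each is written 5′ to 3′ on the gene's strand.
Acod1, chr14:103046762-103047061, plus strand: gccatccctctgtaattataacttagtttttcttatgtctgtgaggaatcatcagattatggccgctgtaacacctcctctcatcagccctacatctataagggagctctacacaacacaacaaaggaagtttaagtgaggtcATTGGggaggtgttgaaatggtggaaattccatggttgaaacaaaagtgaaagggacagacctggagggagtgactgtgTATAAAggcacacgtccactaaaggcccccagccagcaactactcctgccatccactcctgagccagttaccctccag
Ass1, chr2:31470020-31470319, plus strand: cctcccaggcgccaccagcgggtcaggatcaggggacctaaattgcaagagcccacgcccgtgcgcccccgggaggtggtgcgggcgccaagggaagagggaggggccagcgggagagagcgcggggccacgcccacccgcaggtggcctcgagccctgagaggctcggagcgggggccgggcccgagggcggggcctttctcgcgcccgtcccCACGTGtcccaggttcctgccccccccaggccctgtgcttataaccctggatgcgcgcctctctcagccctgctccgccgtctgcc
Gch1, chr14:47189364-47189663, minus strand: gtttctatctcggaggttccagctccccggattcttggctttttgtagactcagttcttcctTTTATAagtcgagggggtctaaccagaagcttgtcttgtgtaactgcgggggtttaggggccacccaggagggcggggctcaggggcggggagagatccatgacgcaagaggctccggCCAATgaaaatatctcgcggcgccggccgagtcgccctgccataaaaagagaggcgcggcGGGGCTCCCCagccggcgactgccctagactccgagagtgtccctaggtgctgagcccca

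The *Acod1* window held TATAAA starting at -28 from the transcription start and CCAAT on the opposite strand at -107. In the *Ass1* window the single match was the E-box CACGTG at -36. *Gch1* had CCAAT at -70, an NF-kB match at -10 and TATAAA on the opposite strand at -188. The *Odc1* window held none of these letters, and of the 2 *Slc7a1* windows, for different starts, 1 held the core promoter box and the STAT motif, and the other held the CCAAT box, the AP-1 motif and the antioxidant response motif, the first and last of these overlapping by 1 base. Among 32851 windows of the same length, 13.6% held the core promoter box, 37.4% the CCAAT box, 7.15% the E-box and 8.46% the NF-kB consensus. The STAT motif was in 8.3%, the AP-1 motif in 7.81% and the antioxidant response motif in 12.4%. A match describes letters and is not a measured binding site.

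To compare genes, CPM was divided by the length of annotated exons. *Acod1* had the highest level in each group, with 117 ± 3.60 CPM per kb (SD, n = 2) with Veh and the label normal and 255 ± 11.3 with CC and the label steatotic. *Odc1* followed in each group at 31.9 to 43.2 CPM per kb. The end of the order differed by group. *Slc7a2* was last with the label normal and Veh, at 1.67 ± 0.0221 CPM per kb, *Nos2* with the label steatotic and Veh, at 2.08 ± 0.107, and *Slc7a1* with the label steatotic and CC, at 5.64 ± 0.188. Neighbours whose libraries overlapped were *Slc7a2* and *Ass1* (label normal, CC) and *Odc1* and *Ass1* as well as *Slc7a2* and *Nos2* (label steatotic, CC).

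**Figure D1:**
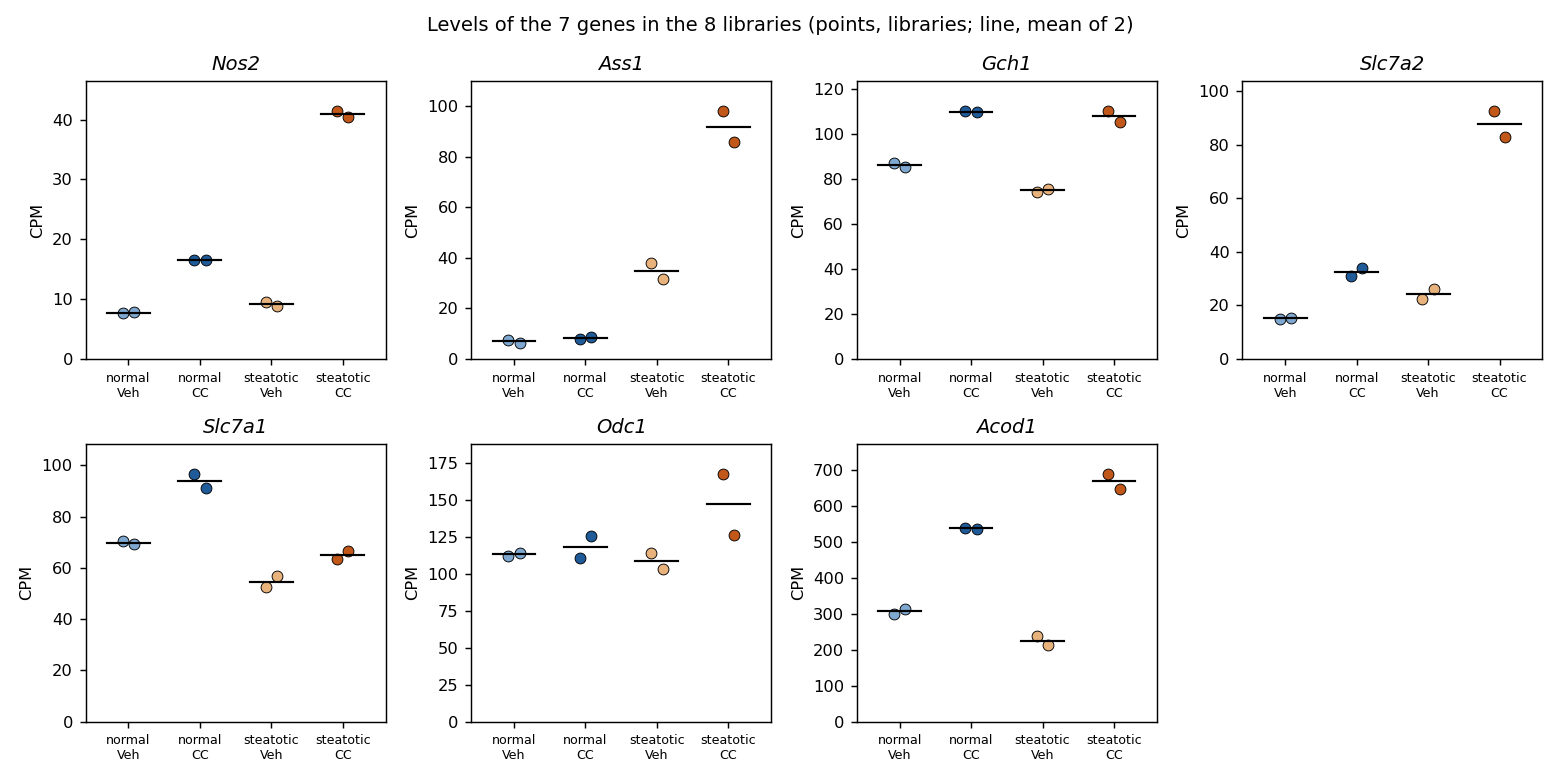
Level of each of the 7 genes in CPM (vertical axis from 0) in the 4 groups (horizontal axis), with 1 point per library and a line at the mean of 2. *Nos2* reached 40.4 to 41.5 CPM with CC and the label steatotic and stayed at 16.5 or below elsewhere, while every *Ass1* library labelled steatotic, at 31.7 CPM or more, was above those labelled normal, at 8.74 or below.

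The response to CC was compared first, to ask how these genes changed when the cells were given crystals and whether the change differed between the livers. With the label normal, 5 of the 7 genes rose (*Nos2*, *Gch1*, *Slc7a2*, *Slc7a1* and *Acod1*) and 0 fell, against 11.8% of all tested genes that passed (6.27% higher and 5.54% lower). With the label steatotic, 6 of 7 rose, the same 5 with *Ass1*, and 0 fell, against 22.9% of all tested genes (12% higher and 10.9% lower). The rise was larger with the label steatotic for 4 of 7 (*Nos2*, *Ass1*, *Slc7a2* and *Acod1*) and smaller for 0, against 3.22% of all tested genes (1.95% and 1.27%). The median log2 fold change of the 7 genes was 0.464 with the label normal and 1.42 with the label steatotic. The 5 comparisons share libraries.

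**Figure D2:**
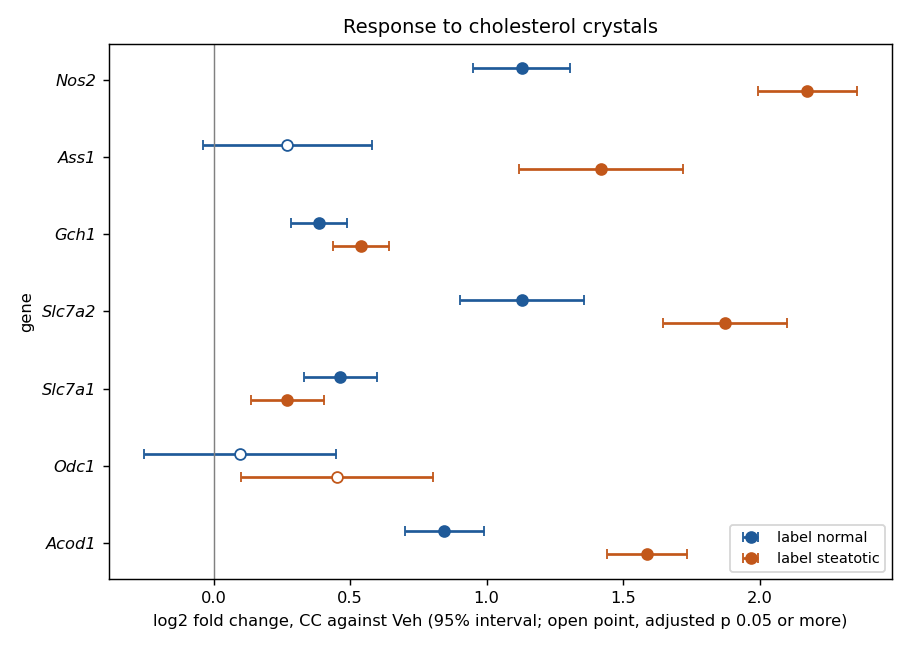
Log2 fold change with CC against Veh (horizontal axis) of the 7 genes (vertical axis), for the label normal and the label steatotic, with 95% intervals from edgeR; open points had an adjusted p of 0.05 or more. *Nos2* lay at 1.13 and 2.17, *Acod1* at 0.84 and 1.59, and *Slc7a2* at 1.13 and 1.87.

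*Nos2* (ENSMUSG00000020826.9, chr11:78920787-78960254, plus strand, GRCm38) measured 7.63 and 7.87 CPM in the normal Veh libraries, 16.5 and 16.5 with normal CC, 9.51 and 8.85 with steatotic Veh, and 41.5 and 40.4 with steatotic CC. The groups did not overlap, and steatotic CC was highest. CC raised *Nos2* 2.19-fold with the label normal (log2 fold change 1.13, SE 0.0765, adjusted p = 0.000131, edgeR) and 4.51-fold with the label steatotic (2.17, SE 0.0778, adjusted p = 2.94e-06). The responses differed by 1.05 log2 units (SE 0.107, adjusted p = 0.00382), and this call held in all 16 alternatives, with values of 0.99 to 1.09. Between livers the difference was small at Veh (0.29, SE 0.0763, adjusted p = 0.0243) and larger with CC (1.34, SE 0.0756, adjusted p = 1.47e-05). The Veh call was lost with DESeq2 (adjusted p = 0.0577), with the 4 Veh libraries alone (0.121), and without normal Veh 1 (0.105), normal Veh 2 (0.0632) or steatotic Veh 1 (0.12).

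*Ass1* (ENSMUSG00000076441.9, chr2:31470207-31520672, plus strand) encodes argininosuccinate synthase, the first enzyme in the recycling of citrulline to arginine. Its levels were 7.65 and 6.42 CPM with normal Veh, 7.80 and 8.74 with normal CC, 37.9 and 31.7 with steatotic Veh, and 98.2 and 85.7 with steatotic CC. Every library labelled steatotic was above every library labelled normal, and the 2 steatotic groups did not overlap. *Ass1* was 5.10-fold higher with the label steatotic at Veh (2.35, SE 0.135, adjusted p = 1.64e-05) and 11.3-fold higher with CC (3.50, SE 0.140, adjusted p = 3.11e-06). CC raised it with the label steatotic (1.42, SE 0.128, adjusted p = 0.000203), whereas with the label normal its log2 fold change was 0.27 (95% interval -0.04 to 0.58, adjusted p = 0.260). The responses differed by 1.15 (SE 0.183, adjusted p = 0.0189), a call that was lost without normal Veh 1 (adjusted p = 0.0565), normal CC 1 (0.0777), normal CC 2 (0.0517), steatotic Veh 2 (0.0529) or steatotic CC 1 (0.0573).

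*Asl*, which encodes argininosuccinate lyase, the next enzyme of that recycling, averaged 44.8, 44.5, 38.9 and 43.4 CPM in the groups normal Veh, normal CC, steatotic Veh and steatotic CC and passed the test in none of the 5 comparisons. Per kb of exons, the ratio of *Ass1* to *Asl* was 0.314, 0.372, 1.79 and 4.25 in the same order of groups.

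Markers of several other cell types also differed between the labels at Veh, where 16.4% of all tested genes were higher with the label steatotic and 14.3% lower. All 5 monocyte markers (*Ly6c2*, *Ccr2*, *Plac8*, *Chil3* and *Fn1*) were higher with the label steatotic at Veh, and their summed level was 14.9 to 15.6 CPM with normal Veh, 11.7 to 12.8 with normal CC, 124 to 130 with steatotic Veh and 88.8 to 101 with steatotic CC. Of 6 T and NK cell markers, 5 were higher at Veh, with sums of 1.33 to 1.36 CPM (label normal) and 10.6 to 12.3 (label steatotic). Of 5 tested endothelial markers, 3 were higher (*Pecam1* averaged 26.1 and 95.2 CPM, *Kdr* 11.7 and 33.9, and *Fcgr2b* 25.7 and 82.6) and *Stab2* was lower (25.7 and 19.8), with sums of 96.7 to 98.2 CPM (label normal) and 228 to 252 (label steatotic). Among B cell markers 0 of 3 tested passed in either direction, and among cholangiocyte markers 1 of 4, *Krt7*, was higher. Of 9 tested hepatocyte markers, 6 were lower with the label steatotic at Veh and 0 higher (*Alb* averaged 48.8 and 1.58 CPM). In bulk RNA, fewer cells of a type and less RNA per cell cannot be told apart, and the part of the cell mixture in these results was not tested.

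*Gch1* (ENSMUSG00000037580.10, chr14:47153895-47189413, minus strand) encodes GTP cyclohydrolase I, the first enzyme of tetrahydrobiopterin synthesis. It measured 87.0 and 85.5 CPM with normal Veh, 110.2 and 109.7 with normal CC, 74.3 and 75.8 with steatotic Veh, and 110.3 and 105.4 with steatotic CC. The CC libraries of both labels overlapped and were above all Veh libraries. CC raised it by 0.39 with the label normal (SE 0.0433, adjusted p = 0.00127) and by 0.54 with the label steatotic (SE 0.0434, adjusted p = 0.000102). The difference between these responses was 0.15 (95% interval 0.01 to 0.30, adjusted p = 0.311). At Veh it was lower with the label steatotic (-0.16, SE 0.0433, adjusted p = 0.0298), a call lost with DESeq2 (0.0885), with all genes that had any count (0.0548), with the 4 Veh libraries alone (0.0590), and without normal Veh 1 (0.113), normal Veh 2 (0.0728), normal CC 1 (0.0511), normal CC 2 (0.0507), steatotic Veh 1 (0.140) or steatotic Veh 2 (0.0894).

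The wider list of nitric oxide synthases, tetrahydrobiopterin enzymes and regulators held 12 other genes, of which 10 were tested. With CC, 1 of 10 rose and 0 fell with either label, beside 6.27% and 5.54% of all tested genes (label normal) and 12% and 10.9% (label steatotic). The gene was *Cyb5r3*, which encodes a cytochrome b5 reductase and rose by 0.16 and 0.29. *Pts* and *Spr*, encoding the enzymes after GTP cyclohydrolase, averaged 11.9 to 18.6 CPM and did not pass the test. *Nos1*, the neuronal synthase, averaged 7.06 to 18.1 CPM, and *Nos3*, the endothelial one, less than 1 CPM in each group. Between labels at Veh, 0 of the 10 were higher with the label steatotic and 3 lower (*Ddah2*, *Cyb5r3* and *Hsp90aa1*), beside 16.4% and 14.3% of all tested genes. Between labels with CC, 1 was higher (*Nos1*) and 2 were lower (*Ddah2* and *Cyb5r3*), beside 15.9% and 12.9%. The median log2 fold change of the 10 genes was 0.035 and 0.132 with CC, beside 0.464 and 1.42 for the 7.

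Arginine enters macrophages through cationic amino acid transporters. *Slc7a2* (ENSMUSG00000031596.15, chr8:40862396-40922308, plus strand) encodes CAT2, and its exons overlap those of the lincRNA *Gm26584* on the opposite strand. Since the use of strand in counting was not given in the sources used here, reads of the pair cannot be told apart. *Slc7a2* measured 15.1 and 15.4 CPM with normal Veh, 30.9 and 34.0 with normal CC, 22.4 and 26.1 with steatotic Veh, and 92.6 and 82.9 with steatotic CC. All 4 groups stood apart, steatotic CC highest. CC raised it 2.19-fold with the label normal (1.13, SE 0.0970, adjusted p = 0.000393) and 3.66-fold with the label steatotic (1.87, SE 0.0978, adjusted p = 1.33e-05). It was also higher with the label steatotic at Veh (0.72, SE 0.0965, adjusted p = 0.00107) and with CC (1.46, SE 0.0966, adjusted p = 3.17e-05). The difference between responses was 0.74 (SE 0.135, adjusted p = 0.0302), lost without normal Veh 1 (0.0740), normal Veh 2 (0.0880), normal CC 1 (0.0976), normal CC 2 (0.0589), steatotic Veh 1 (0.0786) or steatotic CC 1 (0.0860).

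*Slc7a1* (ENSMUSG00000041313.14, chr5:148327410-148399904, minus strand) encodes CAT1, the widely expressed transporter of the same family. Levels were 70.3 and 69.4 CPM with normal Veh, 96.8 and 91.2 with normal CC, 52.5 and 56.6 with steatotic Veh, and 63.5 and 66.6 with steatotic CC. At Veh and with CC it was lower with the label steatotic, opposite to *Slc7a2*. The difference was -0.31 at Veh (SE 0.0570, adjusted p = 0.00492) and -0.51 with CC (SE 0.0570, adjusted p = 0.00051). All *Slc7a1* libraries labelled steatotic were below those labelled normal. CC raised it with the label normal (0.46, SE 0.0569, adjusted p = 0.00192) and with the label steatotic (0.27, SE 0.0570, adjusted p = 0.0122), with a difference of -0.19 between them (95% interval -0.38 to -0.01, adjusted p = 0.336). The steatotic call was lost without steatotic Veh 1 (0.0880) or steatotic CC 2 (0.0646).

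**Figure D3:**
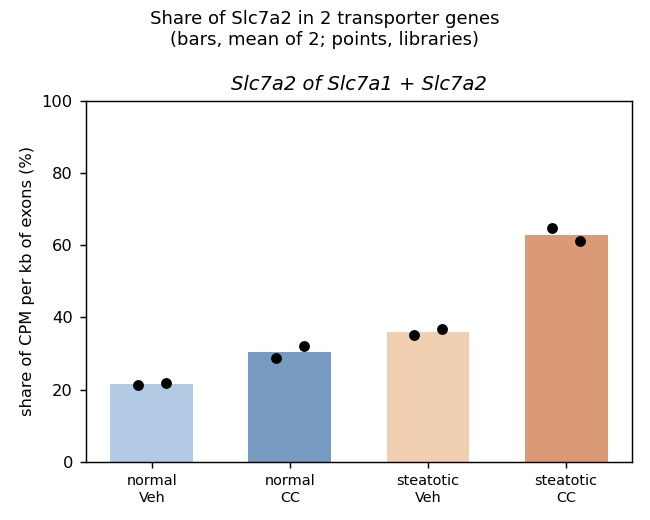
Share (%, vertical axis) of *Slc7a2* in the CPM per kb of *Slc7a1* and *Slc7a2* together in the 4 groups (horizontal axis), with bars at the mean of 2 and points for libraries. The share was 21.6% with normal Veh, 30.4% with normal CC, 35.9% with steatotic Veh and 63.0% with steatotic CC.

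*Slc7a2* made up 21.3% and 21.8% of the CPM per kb of both transporters with normal Veh, 28.8% and 32.0% with normal CC, 35.0% and 36.8% with steatotic Veh, and 64.8% and 61.1% with steatotic CC. *Slc7a2* was thus the more abundant RNA of the pair per kb in steatotic CC libraries and *Slc7a1* in all 6 others. Of 8 other arginine transport genes, 5 were tested. With CC, 1 rose and 0 fell with the label normal, and 1 rose and 1 fell with the label steatotic, beside 6.27% and 5.54%, and 12% and 10.9%, of all tested genes. *Slc3a2*, the heavy chain of several amino acid exchangers, rose with CC with either label (0.49 and 0.47), and *Slc7a7*, the y+LAT1 light chain, fell with the label steatotic (-0.41) and was higher there at Veh (0.89).

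*Odc1* (ENSMUSG00000011179.8, chr12:17544794-17551505, plus strand) encodes ornithine decarboxylase, the first step from ornithine to polyamines. It measured 112 and 114 CPM with normal Veh, 111 and 126 with normal CC, 114 and 103 with steatotic Veh, and 168 and 126 with steatotic CC. The 2 steatotic CC libraries were the highest but far apart. *Odc1* passed the test in none of the 5 comparisons; with CC and the label steatotic its log2 fold change was 0.45 (95% interval 0.10 to 0.80, adjusted p = 0.0759), which passed without steatotic CC 2 (0.00401) and with DESeq2 (0.00379). The difference between labels with CC was 0.34 (95% interval -0.01 to 0.69, adjusted p = 0.138), which also passed without steatotic CC 2 (0.00837) and with DESeq2 (0.0369).

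Of 17 other polyamine genes, all tested, 2 rose and 2 fell with CC and the label normal, and 3 rose and 3 fell with the label steatotic. Over all tested genes the shares were 6.27% and 5.54%, and 12% and 10.9%. *Smox*, spermine oxidase, rose with either label (0.44 and 0.57) and *Paox*, the oxidase of acetylated polyamines, fell (-0.61 and -1.43). *Atp13a2*, a lysosomal polyamine exporter, fell with CC (-0.44 and -0.64) and was higher with the label steatotic at Veh (1.00). Of 7 ornithine and proline genes, 0 passed with CC and the label normal, and *Oat*, ornithine aminotransferase, fell with the label steatotic (-0.23). Arginine also gives creatine: *Gatm*, which transfers its amidino group to glycine, fell from a mean of 32.2 to 13.5 CPM with CC and the label normal (-1.22) and from 44.9 to 10.2 with the label steatotic (-2.12), and the creatine transporter *Slc6a8* rose (1.05 and 1.41). *Gatm* fell further with the label steatotic (difference -0.90). It was the 1 gene of these 3 lists that passed the test of the difference, beside 3.22% of all tested genes.

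*Acod1* (ENSMUSG00000022126.6, chr14:103046977-103056573, plus strand) encodes the enzyme that makes itaconate. Levels were 300.5 and 314 CPM with normal Veh, 539 and 536 with normal CC, 238 and 212 with steatotic Veh, and 689.9 and 648 with steatotic CC. The groups did not overlap, and the order of the labels at Veh was the reverse of that with CC. At Veh it was lower with the label steatotic (-0.40, SE 0.0613, adjusted p = 0.00202) and with CC higher (0.34, SE 0.0612, adjusted p = 0.00499). CC raised it 1.80-fold with the label normal (0.84, SE 0.0616, adjusted p = 0.000173) and 3.01-fold with the label steatotic (1.59, SE 0.0627, adjusted p = 3.69e-06). The responses differed by 0.74 (SE 0.0866, adjusted p = 0.00573), a call that held in all 16 alternatives at 0.66 to 0.82.

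Around itaconate, 16 genes of the Krebs cycle, its carriers and itaconate handling were tested. With CC, 0 rose and 4 fell with the label normal, and 0 rose and 7 fell with the label steatotic, where 5.54% and 10.9% of all tested genes fell. *Sdha*, the catalytic subunit of succinate dehydrogenase, fell slightly (-0.17 and -0.12), *Clybl*, which acts in the breakdown of itaconate, more (-0.83 and -0.61), and *Suclg2*, a subunit of succinyl-CoA ligase, likewise (-0.57 and -0.86). Of 9 NRF2 genes, 6 rose with CC and the label normal and 7 with the label steatotic, and 0 fell, where 6.27% and 12% of all tested genes rose. Heme oxygenase (*Hmox1*) rose by 0.56 and 0.37 and sulfiredoxin (*Srxn1*) by 1.03 and 1.27. The cystine transporter *Slc7a11* rose by 1.03 and 2.97. It was the single gene of the list that passed the test of the difference (1.93), beside 3.22% of all tested genes. At Veh 6 of the 9 were lower with the label steatotic and 0 higher, beside 14.3% and 16.4% of all tested genes. With CC 6 of the 9 were lower with that label and 1, *Slc7a11*, was higher, beside 12.9% and 15.9%.

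**Figure D4:**
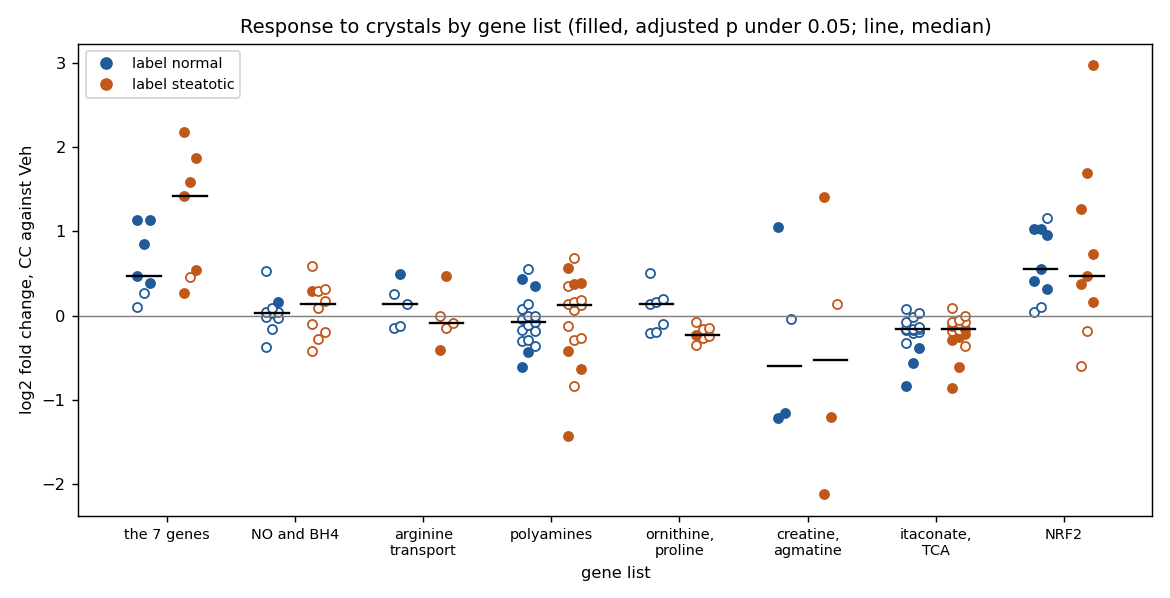
Log2 fold change with CC against Veh (vertical axis) of each tested gene in 8 gene lists (horizontal axis) for both labels, filled where the adjusted p was under 0.05, with a line at the median. The 7 genes had medians of 0.464 and 1.42, and the itaconate and Krebs cycle list lay at -0.17 and -0.16.

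Markers of classical and alternative activation were read beside these genes. Of 12 classical genes, 3 rose and 2 fell with CC and the label normal, and 6 rose and 1 fell with the label steatotic, beside 6.27% and 5.54%, and 12% and 10.9%, of all tested genes. At Veh 5 were higher with the label steatotic and 2, *Il1b* and *Tnf*, lower, beside 16.4% and 14.3%. *Ptgs2*, *Il1b* and *Hif1a* responded more with the label steatotic (differences 1.58, 0.95 and 0.46) and 0 less, beside 1.95% and 1.27% of all tested genes. *Il1b* fell with the label normal (-0.47) and rose with the label steatotic (0.49). Of 12 alternative genes, 9 were tested. At Veh 4 were higher with the label steatotic (*Il4ra*, the IL-4 receptor, by 1.34, and *Mrc1*, *Clec10a* and *Chil3*) and *Irf4* was lower (-0.76), again beside 16.4% and 14.3%. With CC 2 fell and 0 rose with the label normal, and 4 fell and 2 rose with the label steatotic, beside the same shares of all tested genes as for the classical list. In the test of the difference, 0 of these 9 had a higher response with the label steatotic and 2, *Il4ra* and *Mrc1*, a lower one, beside 1.95% and 1.27%. Macrophage markers also moved with CC: 6 of 7 fell with either label, while *Cd68* rose with the label steatotic (0.17), and their summed level was 9132 to 9362 CPM with normal Veh, 7119 to 7197 with normal CC, 11856 to 12133 with steatotic Veh and 7679 to 8039 with steatotic CC. Of 5 Kupffer cell markers, 3 fell with CC and the label normal and 4 fell and *Marco* rose with the label steatotic, and their summed level was 2742 to 2785, 2147 to 2362, 3893 to 3971 and 2548 to 3052 CPM in the same order of groups. *Vsig4* averaged 319, 64.8, 587 and 85.8 CPM, and its fall was larger with the label steatotic (difference -0.50). Among stellate cell markers *Dcn* averaged 2.10, 6.35, 19.1 and 121 CPM in the groups in that order, while the other 5 were under 0.5 CPM. Among neutrophil markers *S100a8* averaged 9.51, 14.6, 4.87 and 18.8 CPM. It was lower with the label steatotic at Veh (-0.92) and rose with CC with either label (0.66 and 1.97). That rise was larger with the label steatotic (difference 1.31). Of 5 tested endothelial markers, 1 rose with CC and the label normal and 3 rose and 1 fell with the label steatotic. The part of these shifts in the results above was not tested.

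Between livers at Veh, *Nos2*, *Ass1* and *Slc7a2* were higher with the label steatotic and *Gch1*, *Acod1* and *Slc7a1* lower, 3 and 3 of 7 against 30.7% of all tested genes (16.4% and 14.3%). With CC, *Nos2*, *Ass1*, *Acod1* and *Slc7a2* were higher and *Slc7a1* was lower, 4 and 1 of 7 against 28.8% of all tested genes (15.9% and 12.9%). *Gch1* with CC differed by -0.00 between labels (95% interval -0.10 to 0.10).

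**Figure D5:**
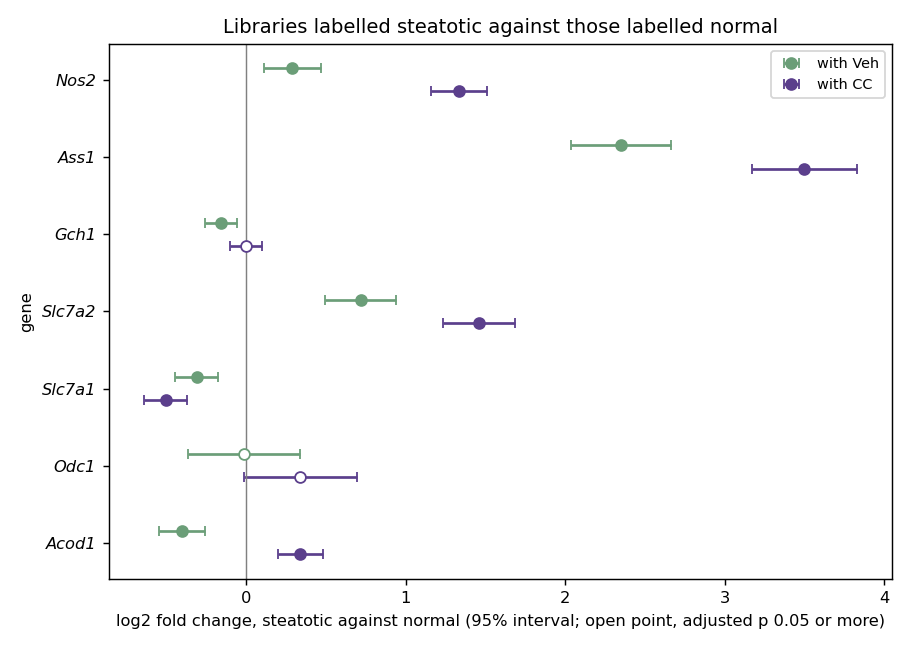
Log2 fold change of the libraries labelled steatotic against those labelled normal (horizontal axis) for the 7 genes (vertical axis), with Veh and with CC, as points with 95% intervals; open points had an adjusted p of 0.05 or more. *Ass1* lay at 2.35 and 3.50, and *Acod1* at -0.40 and 0.34.

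As a ratio per kb of exons, *Acod1* to *Nos2* was 66.6 with normal Veh, 54.8 with normal CC, 41.2 with steatotic Veh and 27.5 with steatotic CC.

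The genes with the most similar profile were sought among 9023 genes by the root mean square difference of centred log2 CPM over the 8 libraries, a description with no test. For *Nos2* the nearest was *Mmp13*, a collagenase, at 0.142, then *Carmil1* (0.187) and *Sdc1* (0.192), where its own profile had an SD of 1.02. *Slc7a2* was nearest to *Mmp13* (0.168), *Tes* (0.178) and *Nos2* itself (0.196), so these 2 genes of arginine entry and use shared their nearest neighbour. *Acod1* was nearest to *Rbpms* (0.0790), *Arrdc4* (0.0918) and *Sgk1* (0.0956). *Ass1* was nearest to *Rai14* (0.280).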

How the data were processed

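RNA of F4/80-selected hepatic macrophages was measured in 8 libraries. The labels name fastp, HISAT2, StringTie and the build mm10, without versions. The authors deposited estimated counts (expected counts) per gene, not normalized, as whole numbers, so no rounding was needed. Of values 1 to 20, 35% to 36.5% were multiples of 4, against 23.9% to 27% of larger values, so a fragment may stand for more than 1 count, and counts divided by 4 were an alternative. Strand use in counting is not given in the sources used here. Total counts (58668655 to 74529462) put 3 counts far under the filter of 0.5 CPM in at least 1 library, which 15202 genes passed. Depth covers counting error only.

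Groups followed the labels. Contrasts were tested in 1 model of 4 group means with edgeR 4.0.16 in R 4.3.3 (TMM factors 0.981 to 1.03, robust quasi-likelihood test), adjusted by Benjamini-Hochberg over all 15202 genes with a threshold of 0.05. Fold changes use edgeR's default prior count, and 95% intervals are not adjusted. CPM used library totals, exon lengths came from GENCODE M21 (GRCm38), and fits were checked on simulated data. The genes and the other lists were chosen with earlier results of these data known, and 2 of 9 genes chosen and 1 list gene are not reported here. Named genes were the 7, list genes that passed the test or stand for a step, markers, *Mc4r* and the 3 nearest profiles of each gene (prior count 4, mean log2 CPM above 3). Alternatives were DESeq2 1.42.0, its size factors, library size only, 2 other filters, counts divided by 4, a prior count of 4, the libraries of a comparison alone, the replicate number as a block, and each library left out. Figures used matplotlib 3.10.9.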

Additional observations from a re-analysis of the deposited data

Results flagged for a closer look

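For 4 of the 7 genes the response to CC differed between the labels in edgeR's test of the difference itself. The response with the label steatotic minus that with the label normal, on the log2 scale, was 1.046 for *Nos2*, 1.149 for *Ass1*, 0.743 for *Acod1* and 0.7432 for *Slc7a2*. With each library left out in turn, the *Nos2* and *Acod1* calls held, while the *Ass1* call was lost in 5 of 8 cases (adjusted p up to 0.0777) and the *Slc7a2* call in 6 of 8 (up to 0.0976).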

How the results depend on the processing

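Of 588 values of the 7 genes under alternatives, those of results past the threshold kept direction and side in 410 cases and lost the call in 28, with 0 reversed. Among results that had not passed, 141 kept both, 4 passed and 5 changed sign. The number of genes with a larger CC response with the label steatotic was 4 and ranged from 2 to 4 when 1 library was left out. It was 2 without normal Veh 1, normal CC 1, normal CC 2 or steatotic CC 1. Leaving a library out puts 1 library in its group, which is then assumed to vary like the others.

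The values that changed sign had adjusted p-values over 0.6. With 1 library left out in turn, log2 fold changes ranged from -0.0885 to 0.0577 for *Odc1* between labels at Veh and from -0.0374 to 0.0325 for *Gch1* between labels with CC. *Gch1* with CC was 0.0061 with all genes that had any count.

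Same-numbered libraries did not deviate together (r of deviations -0.0324 to 0.0427 over 9023 genes), so replicate numbers name samples only. With the number as a replicate block, 3 of the 7 genes had differing responses in place of 4, *Slc7a2* being lost at 0.75 (adjusted p = 0.0526). The other calls on the 7 genes kept their side. Over all genes, differing responses numbered 490, against 737 with DESeq2 and 296 to 424 with 1 library left out. CC calls with the label normal numbered 1795, against 1956 with DESeq2, 1918 with library size only and 1545 with the replicate block. Only 2 libraries per group limit these tests.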
